A study of Homo sapiens with 2 samples.

Results

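IL33 and 8 relatives of the IL-1 cytokine family, the ligands IL1A, IL1B and IL18, the antagonist IL1RN and the receptor genes IL1R1, IL1R2, IL1RAP and IL1RL1, were read on expression arrays of AsPC-1 cells, a human pancreatic ductal adenocarcinoma line. The 9 genes were picked by name after the differences between these arrays were known, with IL33 among the lowest, so the values below describe them and were not tested. All 9 of 19775 genes on the array had at least 1 probe set annotated to that gene alone, 21 probe sets in all. IL33 was 2.62-fold lower on the array labelled si-PGR than on the array labelled Ctrl. The other 8 members also read lower there by their brightest probe sets. For IL1A and IL1B the log2 differences were only -0.04 and -0.11, and IL1A turned to 0.02 with median centring. Of the 8, 3 had a value below the signal floor there and passed it on the array labelled Ctrl only, which fixed their direction.

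The study asked how expression differs in AsPC-1 cells after interference with PGR, the gene of the progesterone receptor. One array held RNA of AsPC-1 cells transfected with PGR siRNA (labelled si-PGR), and 1 array held RNA of AsPC-1 cells given the control siRNA (labelled Ctrl). Both groups are the same established line, grown with fetal bovine serum, in DMEM by the sample labels and in RPMI by the methods. With 1 array per condition there is no replicate error, so the design allows neither a test nor a standard error.

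The values are linear intensities as deposited, and differences are given as log2(intensity + 1), si-PGR minus Ctrl, so that a negative value is lower on the array labelled si-PGR. For a gene with several probe sets, the one with the highest mean log2 signal (the brightest) stood for it. The signal floor of 97.9 on the intensity scale is the median over both arrays of the probe sets with a gene name. It was reached by 11614 genes on at least 1 array. Intensities had a median of 65.3 on the array labelled si-PGR and 68.4 on the array labelled Ctrl. The number of arrays limits the precision. The brighter probe set of PGR read 73.3 on the array labelled si-PGR and 16.1 on the array labelled Ctrl, and the other read 4.80 and 1.53 in the same order. All 4 values lie below the floor and their order goes against the labels, so every direction below rests on the labels alone. All 10 ductal epithelial markers reached the floor on at least 1 array. Their log2 differences by the brightest probe set ran from -0.59 for CEACAM6, an adhesion protein, to 0.51 for MUC1, a mucin. CEACAM6 read 79.3 on the array labelled si-PGR, below the floor, and 119.7 on the array labelled Ctrl. The other probe set of CEACAM6 was at 1.17, and the 3 of MUC1 ran from -1.22 to 0.51.

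Members of the IL-1 family are cytokines that start inflammation through receptors with an intracellular TIR domain, which recruit the adaptor MYD88 and lead to activation of NF-kB. IL-1 alpha and IL-33 can act as alarmins, released from damaged epithelial and stromal cells, whereas IL-1 beta and IL-18 are cut from precursors, chiefly by caspase-1. Control comes from a receptor antagonist and from a decoy receptor that binds ligand without signalling. In pancreatic tumours this family is known for its part in the exchange between tumour cells, fibroblasts and immune cells.

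The siRNA is the only labelled difference between the arrays. The antisense strands of both PGR duplexes of the study are shown here with bases 2 to 8, the seed, in capitals. The sources used here do not say which duplex was on the array.
si-PGR-1: uUGCCUCAaaccaauugcctt
si-PGR-2: uCUUGGGUaauugugcagctt

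The sequence before the start sites of IL33 is shown because PGR is a transcription factor and IL33 had the lowest difference of the set. RefSeq (GRCh38.p14) lists 2 starts of IL33, both on the plus strand, and the 250 bases before each are given 5′ to 3′, at chr9:6214899-6215148 and chr9:6215557-6215806. One window of IL1R1, chr2:102141541-102141790 on the plus strand, and one of IL1A, chr2:112784401-112784650 on the minus strand, are set beside them. Capitals mark matches to AGAACA, the hexamer bound by the progesterone receptor and other steroid receptors, and to TGANTCA, the AP-1 site, on either strand.
IL33 upstream window 1: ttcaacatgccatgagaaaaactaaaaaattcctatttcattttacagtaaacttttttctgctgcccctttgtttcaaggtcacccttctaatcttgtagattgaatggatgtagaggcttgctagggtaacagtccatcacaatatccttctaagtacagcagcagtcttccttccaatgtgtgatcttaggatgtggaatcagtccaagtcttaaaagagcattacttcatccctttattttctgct
IL33 upstream window 2: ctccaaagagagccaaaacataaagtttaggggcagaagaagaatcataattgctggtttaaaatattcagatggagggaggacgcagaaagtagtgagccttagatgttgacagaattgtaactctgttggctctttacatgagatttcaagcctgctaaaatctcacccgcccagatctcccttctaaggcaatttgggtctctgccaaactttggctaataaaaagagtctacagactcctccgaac
IL1R1 upstream window: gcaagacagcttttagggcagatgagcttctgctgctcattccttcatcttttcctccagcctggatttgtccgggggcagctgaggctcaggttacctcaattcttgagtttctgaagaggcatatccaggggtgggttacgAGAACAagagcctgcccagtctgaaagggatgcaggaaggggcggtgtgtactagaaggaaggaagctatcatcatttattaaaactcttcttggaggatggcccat
IL1A upstream window: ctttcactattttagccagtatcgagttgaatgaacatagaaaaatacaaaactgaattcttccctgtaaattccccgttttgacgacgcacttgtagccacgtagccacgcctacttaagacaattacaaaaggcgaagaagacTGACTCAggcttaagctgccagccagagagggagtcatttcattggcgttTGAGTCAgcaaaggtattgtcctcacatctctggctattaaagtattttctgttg

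Neither IL33 window holds the hexamer. Among 17 windows listed for 8 of the members (IL18 was not matched), it occurs in 1, the IL1R1 window above, at position -107 from the start site, and it occurs in 12.4% of all 35116 windows of this length. The AP-1 letters occur in 4 windows of 3 members, with 2 copies in the IL1A window shown, and in 6.57% of all windows. Both windows of IL1A are among the 4, and they overlap and share 1 copy. The letters GGGNNNNNCC of NF-kB occur in 5 windows of 4 members, against 54.4% of all windows, and TATAAA in 5 windows of 5 members, against 10.7%. IL33 had none of these 4 motifs. Both strands were searched, no match of the hexamer and AP-1 overlapped, and a match is a description of letters only.

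IL33, a nuclear cytokine of epithelial and stromal cells that acts as an alarmin when released, is carried by a single probe set (209821_at). It read 536 on the array labelled si-PGR and 1404 on the array labelled Ctrl, both well past the floor. The difference was -1.39 on the log2 scale. It was the 4th lowest of 10840 genes past the floor on both arrays, of which 25, or 0.231%, were at least 2-fold lower. No other probe set of IL33 was there to set beside it. Over 5203 genes with several probe sets past the floor on both arrays, differences within a gene had an SD of 0.26 on the log2 scale, a spread between probe sets of the same RNA and not between cultures.

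IL1A, which encodes IL-1 alpha, an alarmin that signals through the type 1 receptor, showed almost no difference. Its brighter probe set (210118_s_at) read 165 on the array labelled si-PGR and 169 on the array labelled Ctrl, at -0.04 on the log2 scale. The other (208200_at) lay below the floor on both arrays, at 41.6 and 68.2 in the same order. With the log2 values centred on each array's median, IL1A turned to 0.02.

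IL1B encodes the secreted ligand IL-1 beta, and its probe sets disagreed on size. The brighter one (205067_at) read 218 on the array labelled si-PGR and 235 on the array labelled Ctrl, a log2 difference of -0.11. The second (39402_at), also past the floor on both arrays, read 134 on the array labelled si-PGR and 219 on the array labelled Ctrl, a log2 difference of -0.71.

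IL18, a ligand known for inducing interferon gamma in lymphocytes, had 1 probe set (206295_at) with 441 on the array labelled si-PGR and 643 on the array labelled Ctrl. At -0.54 on the log2 scale, or 1.46-fold, it lay just short of 1.5-fold. Of the 4 agonist ligands, IL33 alone passed that size by the brightest probe set.

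IL1RN encodes the antagonist that occupies the type 1 receptor without signalling, and 3 of its 5 probe sets reached the floor. The brightest (212657_s_at) read 169 on the array labelled si-PGR and 213 on the array labelled Ctrl, at -0.33 on the log2 scale. The second (216243_s_at) read 110 and 213 in the same order, a 1.94-fold lower value, at -0.95. The third (212659_s_at) lay near the floor at 93.6 on the array labelled si-PGR and 100.4 on the array labelled Ctrl. All 3 were lower on the array labelled si-PGR, by very different amounts. The remaining 2 stayed below 28 in intensity on both arrays and had opposite signs.

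**Figure D1:**
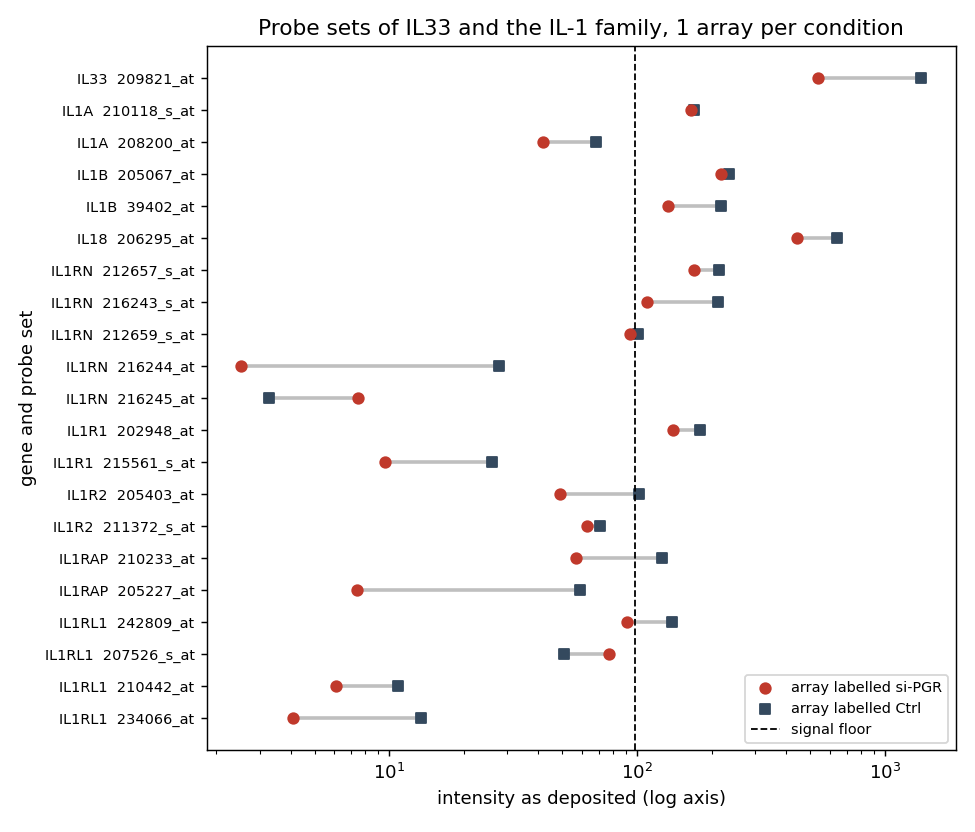
Intensity as deposited (log axis) of all 21 probe sets of the 9 genes, with circles for the array labelled si-PGR, squares for the array labelled Ctrl and the signal floor as a dashed line. All 12 probe sets that reach the floor on at least 1 array have the circle left of the square, with the IL33 pair at 536 and 1404. For those that reach the floor on the array labelled Ctrl only, this order was fixed by the floor.

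IL1R1, the signalling receptor of IL-1 alpha and IL-1 beta, read 139 on the array labelled si-PGR and 179 on the array labelled Ctrl (202948_at), a log2 difference of -0.36. Its other probe set (215561_s_at) lay far below the floor, at 9.59 and 26.1 in the same order. Among the 4 receptor genes it was the only one past the floor on both arrays.

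IL1R2 encodes the decoy receptor, which binds IL-1 and does not signal. Its brighter probe set (205403_at) read 48.7 on the array labelled si-PGR and 102 on the array labelled Ctrl. The log2 difference was -1.05, but with the floor in place of the dimmer value IL1R2 was at least 1.04-fold lower. The other probe set (211372_s_at) was below the floor on both arrays, at 62.8 on the array labelled si-PGR and 70.7 on the array labelled Ctrl.

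IL1RAP, the accessory chain shared by the receptors of IL-1 and IL-33, read 56.6 on the array labelled si-PGR and 126 on the array labelled Ctrl (210233_at). The log2 difference was -1.14, and with the floor in place of the dimmer value IL1RAP was at least 1.28-fold lower. Its other probe set (205227_at) read 7.41 on the array labelled si-PGR and 58.8 on the array labelled Ctrl, both below the floor.

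IL1RL1 encodes ST2, the receptor of IL-33, in membrane-bound and soluble forms. Its brightest probe set (242809_at) read 91.2 on the array labelled si-PGR and 138 on the array labelled Ctrl, at -0.60 on the log2 scale, or at least 1.41-fold lower with the floor in place of the dimmer value. A second (207526_s_at), below the floor on both arrays, ran the other way, at 77.2 on the array labelled si-PGR and 51.0 on the array labelled Ctrl. The remaining 2 (210442_at and 234066_at) read under 14 on both arrays. The arrays therefore give a usable level of IL33 itself on both sides, and none of its receptor on the array labelled si-PGR.

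By the brightest probe set, all 9 members were below 0 on the log2 scale (IL1A at 0.02 with median centring), against 46.8% of genes past the floor. At least 1.5-fold lower were 4 members, IL33, IL1R2, IL1RAP and IL1RL1, a size that 4.72% of genes reached, and 0 members were at least 1.5-fold higher, against 3.65% of genes. At least 2-fold lower were 3 members, IL33, IL1R2 and IL1RAP, against 1.58% of genes. The rule picked the members from this same contrast, so nothing is read from these shares.

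IL1R2, IL1RAP and IL1RL1 passed the floor on the array labelled Ctrl only, and a gene that passes in that way had to differ. Of 774 genes past the floor on 1 array only, 56.7% passed on the array labelled Ctrl. With the floor required of both values, 6 members were left and IL33 was the 1 at least 1.5-fold lower, a size reached by 2.31% of genes. Counted by probe set, 12 of the 21 reached the floor on at least 1 array and all 12 were below 0, against 49.2% of such probe sets on the array. Of these 12, 8 passed on both arrays. The others passed on the array labelled Ctrl only, which fixed their sign. Several of the 12 measure the same gene in the same RNA, and nothing is read from this share.

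The median difference of the 9 members was -0.54 on the log2 scale, against 0.02 over all 11614 genes past the floor. Without IL33 it was -0.45, and over the 6 members past the floor on both arrays it was -0.35. The members were picked from this same contrast, and the floor fixed the sign of IL1R2, IL1RAP and IL1RL1. Nothing is therefore read from these medians. The 8 members other than IL33 had mean signals between 70.4 and 533 on the intensity scale, where scatter between arrays is wider than among bright genes. Of 4520 genes in that range, taken with no floor, 51.1% were below 0 and 9.65% were at least 1.5-fold lower, and their median was -0.01.

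**Figure D2:**
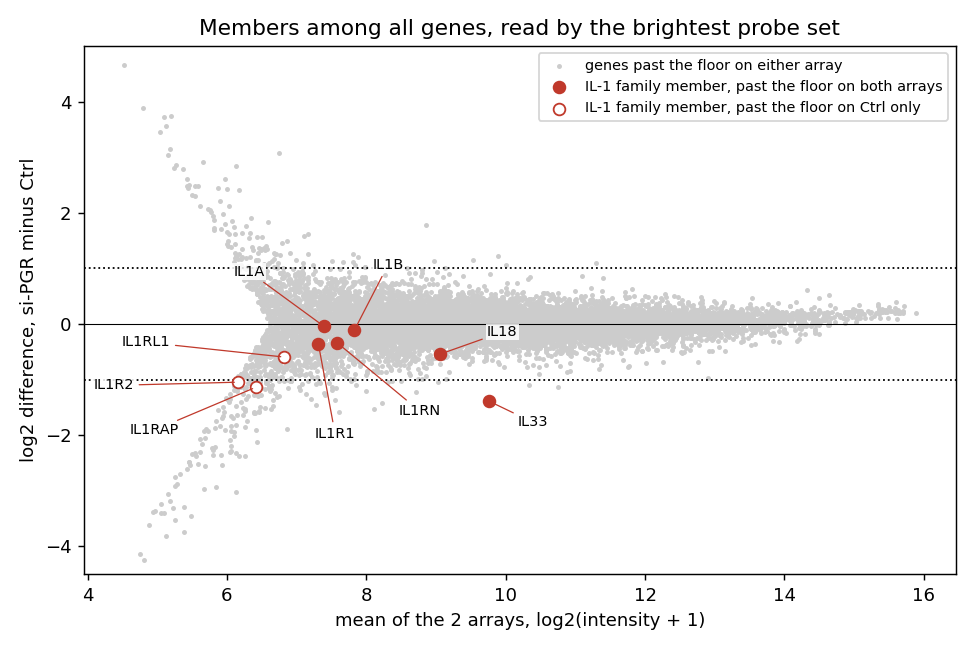
Log2 difference, si-PGR minus Ctrl, against the mean log2(intensity + 1) of both arrays, with 1 grey point per gene past the floor, dotted lines at 2-fold, filled circles for members past the floor on both arrays and open circles for those past it on the array labelled Ctrl only. IL33 at -1.39 lies below the cloud at its signal, and the open circles of IL1R2, IL1RAP and IL1RL1 sit where the cloud spreads.

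The 5 genes whose pair of log2 values lay nearest to that of IL33 were REEP3, SFR1, PRKAA1, TMEM147-AS1 and YEATS2, at Euclidean distances of 0.52 to 0.53 over the 2 arrays, a measure that also picks genes of like brightness. REEP3, a protein that shapes the endoplasmic reticulum, read 748 on the array labelled si-PGR and 1226 on the array labelled Ctrl, at -0.71 on the log2 scale, with its other probe set at 0.08. PRKAA1, a catalytic subunit of AMP-activated kinase, read 747 on the array labelled si-PGR and 1208 on the array labelled Ctrl, at -0.69, and its 5 probe sets reached up to 1.48. All 5 differed by less than IL33 on the log2 scale. This was nearly given, since IL33 was the 4th lowest of 10840 genes past the floor on both arrays.

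The rest of the family was largely under the floor. Of 6 other ligands, the IL-36 cytokines IL36A, IL36B and IL36G with their antagonist IL36RN, IL37 and IL1F10, IL37 alone reached it. IL37, a ligand known to restrain inflammation, read 192 on the array labelled si-PGR and 134 on the array labelled Ctrl, a log2 difference of 0.51, with its other probe set at 0.48. Of 7 other receptors and binding proteins, SIGIRR alone reached the floor. SIGIRR, an inhibitory receptor of the family, read 1513 on the array labelled si-PGR and 1452 on the array labelled Ctrl, at 0.06 on the log2 scale, with its other probe set at -0.34. The chains of the IL-18 receptor, IL18R1 and IL18RAP, stayed below the floor on both arrays.

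Of 13 listed genes of the inflammasome and cytokine processing, 11 were measured and 6 reached the floor. The median of the 6 was -0.09 on the log2 scale, against 0.02 over all genes. None of the 6 was 1.5-fold different in either direction. Over all genes past the floor, 4.72% were that much lower and 3.65% higher, so nothing is read from this. CASP1, the protease that cuts IL-1 beta and IL-18, was at the low end, with 143 on the array labelled si-PGR and 200.8 on the array labelled Ctrl, at -0.48, and its 5 probe sets spanned -0.72 to 2.54. CAPN1, a calpain, was at the high end at 0.20.

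Nearly all genes of the signalling chain below the receptors had usable signal. Of 23 listed genes from MYD88 to the kinases and NF-kB subunits, 20 were measured and 19 reached the floor. Their median was 0.04 on the log2 scale. Of the 19, 1 was at least 1.5-fold lower and 0 at least 1.5-fold higher. The shares over all genes past the floor were 4.72% and 3.65%, so nothing is read from these counts. MYD88, the adaptor of the receptors, was at the high end, with 1447 on the array labelled si-PGR and 1148 on the array labelled Ctrl, at 0.33. IKBKG, the regulatory subunit of the IkB kinase, was at the low end, with 368 on the array labelled si-PGR and 601 on the array labelled Ctrl, at -0.70, and its other probe set was at 0.41.

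Of 22 listed genes known to be induced by IL-1 or NF-kB, 16 were measured and 11 reached the floor, with a median of -0.09 on the log2 scale. Of the 11, 1 was at least 1.5-fold lower and 0 at least 1.5-fold higher, against 4.72% and 3.65% of all genes past the floor. CXCL3, a chemokine that attracts neutrophils, was the 1 gene at least 1.5-fold lower, with 72.2 (below the floor) on the array labelled si-PGR and 140 on the array labelled Ctrl, at -0.95. CXCL1, a chemokine of the same group, was at the high end at 0.38. Among 6 other epithelial alarmins, HMGB1, a chromatin protein, alone reached the floor, at 0.52 by its brightest probe set and -0.09 to 0.52 over its 5 probe sets.

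**Figure D3:**
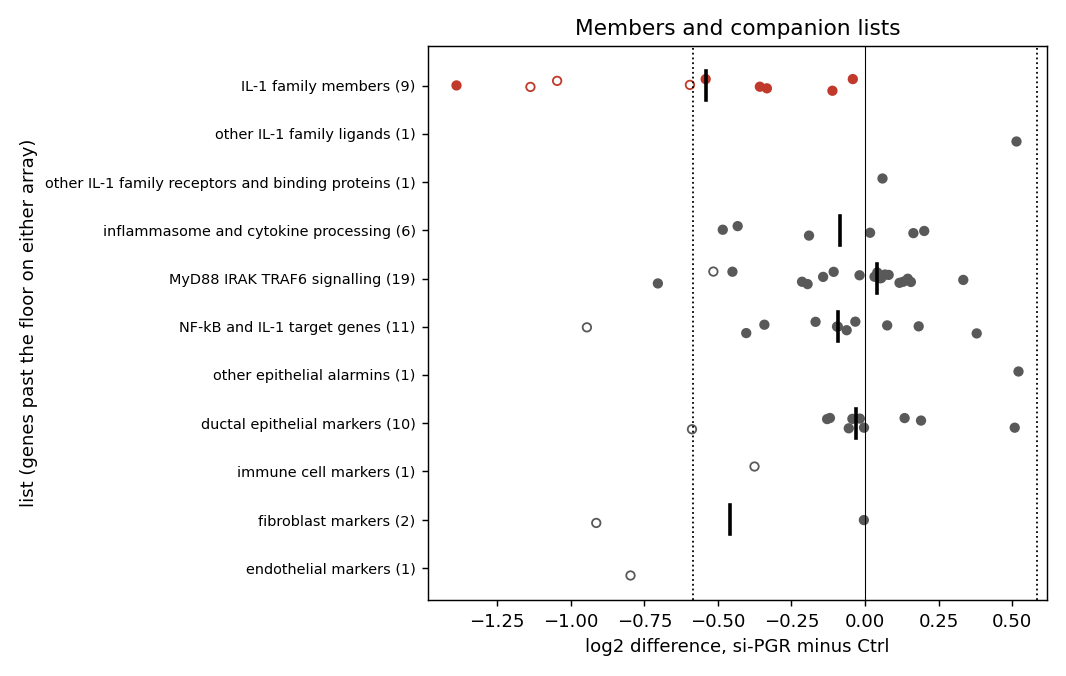
Log2 difference, si-PGR minus Ctrl, of the genes past the floor on at least 1 array in the 9-member set and the 10 companion lists, with the number of such genes in parentheses, filled points past the floor on both arrays, open points on 1 array, a bar at the median of lists with more than 1 gene and dotted lines at 1.5-fold. The members have a median of -0.54, and the signalling list, with 19 genes, has a median of 0.04. The members were picked from this same contrast, so nothing is read from the gap.

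Several members are also expressed by immune, stromal or endothelial cells, so markers of these cells were read in the same way. Of 4 measured immune markers, CD14 alone reached the floor, on the array labelled Ctrl only (-0.38 on the log2 scale), and PTPRC, which marks all leukocytes, read 14.3 on the array labelled si-PGR and 32.2 on the array labelled Ctrl by its brightest probe set. The summed intensity of the immune list was 205 on the array labelled si-PGR and 328 on the array labelled Ctrl. Of 6 fibroblast markers, COL1A1 reached the floor on both arrays, at a log2 difference of -0.00, and the list had sums of 519 on the array labelled si-PGR and 499 on the array labelled Ctrl. DCN, a matrix proteoglycan, reached it on the array labelled Ctrl only, with 60.3 on the array labelled si-PGR and 114.5 on the array labelled Ctrl, at -0.91. Of 4 endothelial markers, PECAM1 alone reached it, on the array labelled Ctrl only (-0.80 on the log2 scale), with sums of 140 on the array labelled si-PGR and 216 on the array labelled Ctrl. The 5 probe sets of COL1A1 ran from -3.63 to 1.43 on the log2 scale, and the 7 of DCN from -2.02 to 1.11. Those of PECAM1, 5 in number, ran from -2.74 to 0.43. No marker was at exactly 0 by its brightest probe set, and the sums include values below the floor. Both arrays held RNA of the same established tumour line, and no other cells are named for them. Any part of other cells in the members' differences was not tested.

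**Figure D4:**
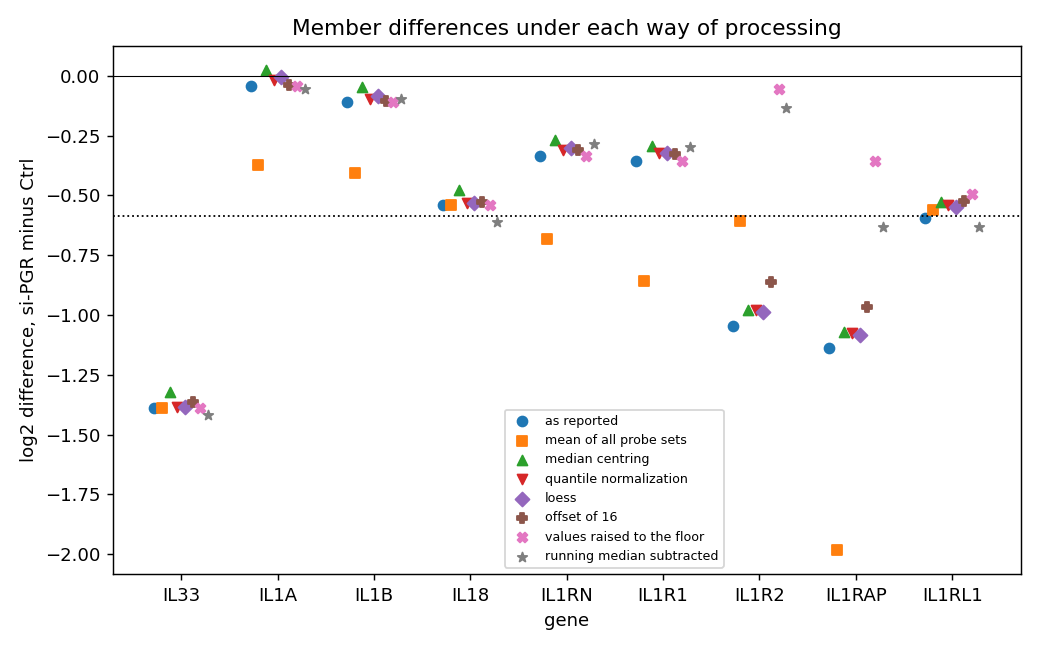
Log2 difference, si-PGR minus Ctrl, of each member as reported and under 7 other ways of processing, with a dotted line at 1.5-fold lower. IL33 lies between -1.42 and -1.32, IL1RAP runs from -1.98 to -0.36 and IL1R2 from -1.05 to -0.05.

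With median centring, quantile normalization or loess, IL33 lay between -1.39 and -1.32 on the log2 scale, IL1RAP between -1.08 and -1.07 and IL1R2 between -0.99 and -0.98. Averaging of probe sets and the floor left IL33 at -1.39 by construction, since it has 1 probe set and both values lie past the floor. With the probe sets of a gene averaged, dim ones included, IL1RAP was -1.98, IL1R1 -0.86 and IL1R2 -0.61, and with values raised to the floor IL1RAP was -0.36 and IL1R2 -0.05. IL1RL1 lay at the edge of 1.5-fold and fell short of it in 6 of its 7 alternatives, at -0.56 to -0.49. After subtraction of a running median over genes past the floor, IL18 passed that size at -0.61, and IL1R2 fell short of it at -0.13. The mean signal of IL1R2, 70.4, lies below the floor, where such genes had to differ between the arrays. The shift of IL1R2 therefore cannot be read as a trend with signal.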

How the data were processed

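Total RNA of AsPC-1 cells, 1 array per condition, was labelled and hybridised to an Affymetrix 3' expression array. The authors deposited linear intensity values, 1 per probe set and array. The algorithm, background correction and scaling are not given in the sources used here. Means after trimming 2% at each end were equal, at 500.1, so the arrays had been scaled to a common level, which leaves a trend with signal in place.

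Of 54675 probe sets, 41097 with 1 gene symbol in the platform annotation were used. The 1801 with several symbols and 11777 with none were left out. Symbols were updated to RefSeq for 41043. Values were compared as log2(intensity + 1), and no test was possible. Members and gene lists were chosen with earlier results of these data known. The genes named are PGR, all members, from each list those at least 1.5-fold different or at either end among genes past the floor, and the 5 nearest to IL33. Listed genes with no probe set of their own were not analysed here.

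Alternatives were the mean of all probe sets, median centring, quantile normalization, loess (span 0.7), an offset of 16, other floors and a 2-fold rule. Raising values to the floor, and subtracting a running median (201 genes of similar brightness, past the floor on either array), were chosen after seeing the data. The calculation was tested on simulated data with changes larger than 1.5-fold, little added noise and no floor. That test says nothing on calls near the floor. Calculations ran in Python 3.11.15 with pandas 2.3.3 and numpy 2.4.6, loess in statsmodels 0.14.6, and plots in matplotlib 3.10.9.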

Additional observations from a re-analysis of the deposited data

How the results depend on the processing

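IL33 lay between -1.42 and -1.32 on the log2 scale under the alternatives that could move it. Averaging of probe sets and the floors could not, since it has 1 probe set and both values lie past the floor (the 75th percentile floor on the array labelled Ctrl only). Of 63 recomputed differences of the members, 62 were below 0, and IL1A was 0.02 with median centring. Many of the 63 could not change sign. The offset and raising values to the floor keep the order of a probe set's values. Averaging leaves IL33 and IL18, with 1 probe set each, as they were. Nothing is therefore read from this count. The number of members at least 1.5-fold lower was 4 as reported. It was 3, without IL1RL1, under median centring, quantile normalization, loess and the offset of 16. After subtraction of a running median it was again 4, with IL18 in place of IL1R2. At the signal of IL1R2 that median rests on genes that had to differ to reach the floor. It was 1, IL33, with the floor required of both values, with the floor at the 75th percentile, and with values raised to the floor (chosen after seeing the data). With the mean of all probe sets it was also 1, of 4 members that then reached the floor. The median of the members was -0.54 as reported and -0.96 with the floor at the 75th percentile, which left 2 members, IL33 and IL18. No member was at least 1.5-fold higher under any of these alternatives. No paired analysis was possible because each condition has 1 array. Low signal limits IL1R2, IL1RAP and IL1RL1, which have no usable level on the array labelled si-PGR.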

Other observations

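The neighbours of IL33 on chromosome 9 were chosen after the values were seen. Those with usable signal lay nearer to 0. Nearly any gene would, since IL33 was picked as one of the lowest, and nothing is read from this for IL33. RANBP6, the gene before it in the RefSeq order, read 1737 on the array labelled si-PGR and 1384 on the array labelled Ctrl, at 0.33 on the log2 scale. UHRF2, a ubiquitin ligase 2 genes after it, read 1589 on the array labelled si-PGR and 1593 on the array labelled Ctrl, at -0.00. TPD52L3, which lies between IL33 and UHRF2, was below the floor on both arrays. BRD10, further out on the side of RANBP6, read 539 on the array labelled si-PGR and 637 on the array labelled Ctrl, at -0.24.

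IL1RN, IL37, IL1A and IL1B lie in 1 cluster on chromosome 2. There IL37 was higher on the array labelled si-PGR, at 0.51 on the log2 scale, and IL1RN, IL1A and IL1B were at -0.33, -0.04 and -0.11. In the receptor cluster of the same chromosome IL1R2, IL1R1 and IL1RL1 were at -1.05, -0.36 and -0.60. Of these, IL1R2 and IL1RL1 passed the floor on the array labelled Ctrl only, which fixed their sign. IL1RL2, IL18R1 and IL18RAP were below the floor on both arrays.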
